A study of Mus musculus with 2 samples.

Results

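The liver aquaporin genes Aqp1, Aqp8, Aqp9 and Aqp11 were followed in a comparison of ortho-toluidine (OTD) treated and untreated mice. They were taken from the deposited table by gene symbol and were 4 of its 15348 genes. They were chosen by symbol with their levels in both pools and the OTD over control ratios already known, so these values are described below and not tested. The study used female NOG-TKm30 mice aged 16 weeks, an immunodeficient NOG strain that carries HSVtk mutant clone 30 (a viral thymidine kinase) driven by the mouse transthyretin enhancer and promoter. Both groups carry this transgene, whose promoter is active in hepatocytes. Treated mice received 0.6% OTD, which is an aromatic amine, in week 1 and 0.3% in the following 3 weeks, and control mice received 0% over the same 4 weeks. Each group had 1 library, pooled from 3 control mice or from 5 OTD mice, and the spread between mice or pools is unknown. Reads assigned to the genes of the table, recovered from its values, numbered 13569189 (control) and 14685193 (OTD). The strain label names NOG-TKm30, the treatment protocol names C57BL, and the column headings of the table include Wild, a word with no explanation in the labels.

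Aquaporins are membrane channels through which water, and for some members glycerol, ammonia or hydrogen peroxide, pass down their gradients. In liver, AQP8 is known from the canalicular membrane, intracellular vesicles and mitochondria of hepatocytes, and AQP9 from their sinusoidal (blood-facing) membrane, where it lets glycerol in. AQP1, the archetypal water channel, is known from bile duct cells, endothelium and red cells, and AQP11 is an unorthodox member found in the endoplasmic reticulum.

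The pore of an aquaporin is lined by a pair of short boxes, known as NPA boxes, that give the family its signature. The coding bases of both boxes are shown because they let the 4 genes be compared at the one feature they share. Each line runs 5′ to 3′ in the longest annotated coding sequence of GENCODE M21, with the 3 codons of the box in capitals.
Aqp1 box 1: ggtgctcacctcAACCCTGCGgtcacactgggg
Aqp8 box 1: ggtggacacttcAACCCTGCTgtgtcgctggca
Aqp9 box 1: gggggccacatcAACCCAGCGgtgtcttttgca
Aqp11 box 1: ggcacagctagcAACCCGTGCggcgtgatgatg
Aqp1 box 2: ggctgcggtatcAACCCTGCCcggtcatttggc
Aqp8 box 2: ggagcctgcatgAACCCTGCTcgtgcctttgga
Aqp9 box 2: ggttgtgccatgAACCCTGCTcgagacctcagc
Aqp11 box 2: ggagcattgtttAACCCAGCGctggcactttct
The last codon of box 1 was GCG in Aqp1 and Aqp9, GCT in Aqp8 and TGC in Aqp11, which in this respect stood apart from the other members. In box 2 all 4 genes had a codon beginning with GC. The flanking bases differed between the genes, and no 50-base stretch of an Aqp1, Aqp8 or Aqp9 transcript occurred in a transcript of another gene. Of the 9446 such stretches of Aqp11, 2 occurred in transcripts of other genes in the same sense and 22 in the opposite sense.

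In GRCm38, Aqp1 lies on the plus strand of chromosome 6 at 55336432 to 55348555, and its longest annotated transcript has 4 exons. Aqp8 lies on the plus strand of chromosome 7 at 123462291 to 123468004 (6 exons). Aqp9 lies on the minus strand of chromosome 9 at 71110659 to 71168682 (7 exons). Aqp11 lies on the minus strand of chromosome 7 at 97724006 to 97738289, and its longest transcript is a single exon. Aqp9 overlaps the pseudogene Gm47268 and the antisense gene Gm32511 on the opposite strand, with 0 exonic bases in common, and the other members overlap no annotated gene.

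Aqp8 was the member that differed most between the pools. Levels are given as normalized signal, which behaves as CPM (reads scaled by library total) divided by a factor near 1. The Aqp8 level was 101.4 in the control pool (1350 reads) and 180.0 in the OTD pool (2695 reads). The 95% counting intervals of these levels, 96.1 to 107.0 and 173.3 to 186.9, did not overlap. Aqp8 was thus 1.77-fold higher in the OTD pool (95% exact Clopper-Pearson interval on the split of reads, 1.66 to 1.90), or 0.82 on the log2 scale with a pseudocount of 1 added to each level. All intervals here cover counting error and leave out any variation among mice or pools.

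Aqp9, the glycerol channel, took the most reads of the 4 genes. Its level was 396 in control (5271 reads) and 373.5 in OTD (5591 reads), a ratio of 0.943 (0.908 to 0.979) and a log2 ratio of −0.084. Although the interval stayed below 1, the log2 ratio was −0.011 when both pools were scaled to the same total without the ribosomal RNA precursor Rn45s, and 0.00039 when the median of genes of like level was subtracted. The share of Rn45s in the reads of all genes of the table was 1.47% (control) and 2.66% (OTD). No direction is therefore given for Aqp9.

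Aqp1, the water channel of duct, endothelial and red cells, stood at 127.8 in control (1701 reads) and 116.8 in OTD (1749 reads). The ratio was 0.914 (0.855 to 0.978) and the log2 ratio −0.13, the lowest of the 4. The log2 ratio ranged from −0.14 to −0.056 across the alternative scalings and pseudocounts. The interval was taken at the deposited scaling alone and shifts with the scaling, so no direction is given for Aqp1 either. Aqp11, the channel of the endoplasmic reticulum, was the least abundant. Its level was 18.1 in control (241 reads) and 18.0 in OTD (269 reads), with a ratio of 0.992 (0.831 to 1.19). This interval spans 1, so a difference was not detectable at this depth, and the log2 ratio of −0.010 turned to 0.042 when both columns were scaled to the same total.

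**Figure D1:**
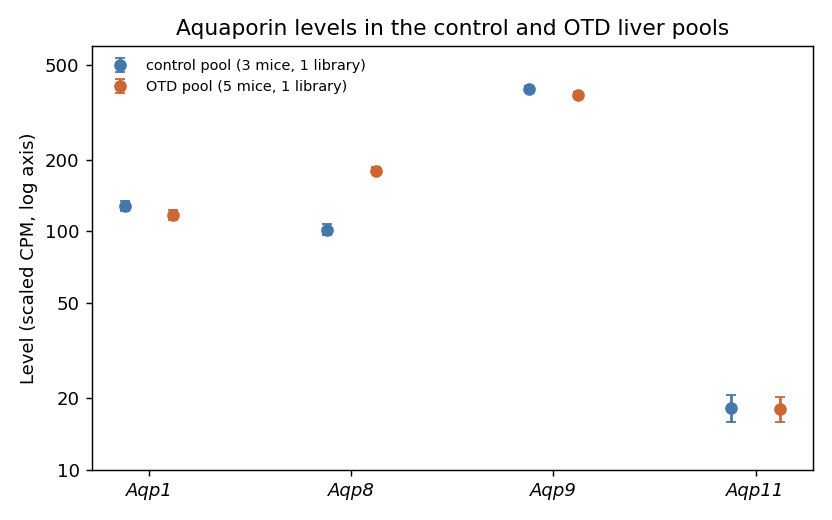
Level of each aquaporin gene in the control pool (blue) and the OTD pool (orange), 1 library each, in scaled CPM on a log axis, with 95% Poisson counting intervals. Aqp8 moves from 101.4 to 180.0, while the points of Aqp1, Aqp9 and Aqp11 lie close together in the 2 pools.

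Of the 4 members, each with a mean level of at least 10 over the 2 pools (the minimum used to call a gene measured), 0 were at least 2-fold higher or lower. Over all 7602 measured genes 0.210% were higher by this rule and 0.210% lower. At 1.5-fold, 1 of the 4 was higher (Aqp8) and 0 were lower, beside 1.51% and 0.908% of all measured genes. The members were chosen with this contrast known, so nothing is read from these counts. The median log2 ratio of all measured genes was −0.0063 (SD across genes 0.24). The log2 ratio of Aqp8 was exceeded by 40 of the 7602 genes, and by 3 of the 919 genes whose mean level lay within 1.5-fold of its own. The other members lay in the bulk of genes of like level. The log2 ratio of Aqp9 lay within the interquartile range of 323 such genes (−0.15 to 0.088) and that of Aqp11 within the range of 2485 genes (−0.12 to 0.15), while Aqp1 lay just inside the lower end of that of 1045 genes (−0.13 to 0.094).

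**Figure D2:**
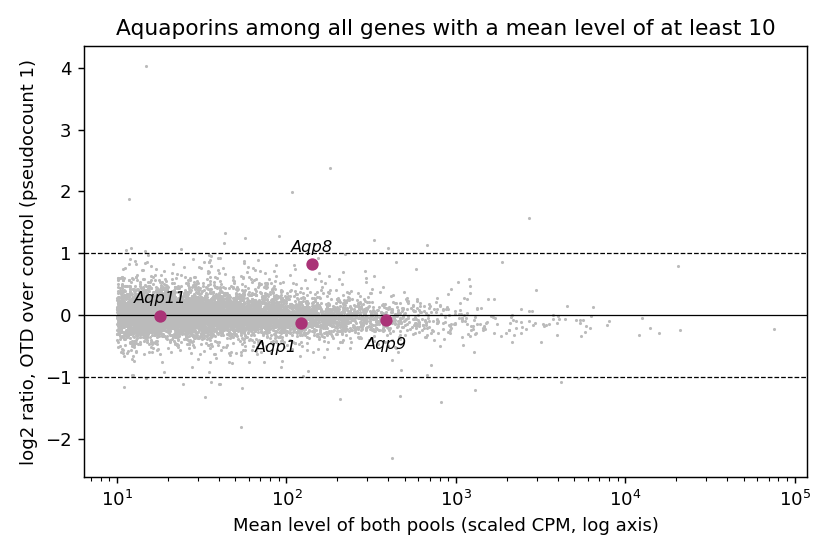
Log2 ratio of OTD over control against the mean level of both pools (log axis) for the 7602 genes with a mean level of at least 10 (grey), with the 4 aquaporins in purple and dashed lines at 2-fold. Aqp8 at 0.82 lies near the upper edge of the cloud and below the 2-fold line, and the other members lie within 0.13 of 0.

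Comparing members within a library removes the scaling between pools. There were 0.256 Aqp8 reads per Aqp9 read in control and 0.482 in OTD, so this ratio was 1.88 times as high in the OTD pool (95% counting interval 1.75 to 2.03). Against Aqp1 the Aqp8 ratio was 1.94 times as high (1.77 to 2.13), and against Aqp11 1.79 times (1.49 to 2.15). The ratio of Aqp1 to Aqp9 was 0.323 in control and 0.313 in OTD, which gave 0.969 (0.898 to 1.05). These ratios restate the levels that were known when the genes were chosen and are given as a description of the 2 libraries.

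The make-up of the aquaporin reads differed accordingly. Aqp8 gave 15.8% of the reads of the 4 genes in control, with an upper 95% exact binomial bound of 16.6%, and 26.2% in OTD, with a lower bound of 25.3%. The share of Aqp9 was 61.6% in control and 54.3% in OTD, and that of Aqp1 was 19.9% and 17.0%. Aqp11 held 2.81% and 2.61%, with overlapping intervals. The summed level of the 4 genes was 643.3 in control and 688.3 in OTD, a ratio of 1.07 (1.04 to 1.10).

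**Figure D3:**
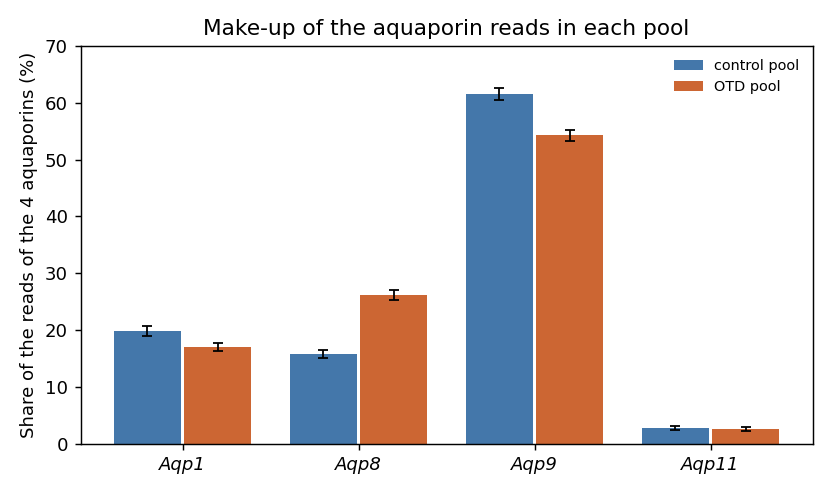
Share of each gene in the reads of the 4 aquaporins (%), by pool, with 95% exact binomial intervals. The bar of Aqp8 goes from 15.8% in control to 26.2% in OTD, and those of Aqp9 and Aqp1 are shorter in OTD.

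The levels and read shares above are not corrected for transcript length, so the 4 genes were also compared per kilobase. Per kilobase of the longest annotated transcript, the share of Aqp8 was 25.9% in control and 39.9% in OTD. That of Aqp1 was 18.5% and 14.6%. With the longest annotated transcript, Aqp9 led in control with a level of 143.2 per kilobase, followed by Aqp8 with 68.2, Aqp1 with 48.6 and Aqp11 with 3.12. In the OTD pool the order was the same, but Aqp8 with 121.1 per kilobase came close to Aqp9 with 135.1, ahead of Aqp1 with 44.5 and Aqp11 with 3.10. Neighbours in this order did not overlap in their counting intervals, which for the top pair in OTD were 131.6 to 138.7 and 116.5 to 125.7. With the union of all annotated exons as the length, Aqp8 passed Aqp9 in the OTD pool (113.9 against 90.1 per kilobase) but not in control (64.2 against 95.6). Which of these 2 genes was the more abundant in the OTD pool thus depended on the length used. The control level of Aqp11 per kilobase was 7.82 with the median protein-coding transcript length and 1.92 with exon unions. Aqp11 ranked last of the 4 with each length.

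Of the rest of the family, 2 genes were near the floor of detection. Aqp4, known as a water channel of astrocytes, had 2 reads in each library, and Aqp7, an adipocyte glycerol channel, had 3 reads in control and 2 in OTD. In the control library 3 reads give a level of 0.225, and in the OTD library 0.200. Mip, Aqp2, Aqp3, Aqp5, Aqp6 and Aqp12 were not found under these symbols among the genes of the table, so they were not analysed here.

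The bases before the start site are shown for Aqp8 alone, the member whose level differed most between the pools. The stretch is chr7:123462044-123462293 on the plus strand of GRCm38.p6, from RefSeq, and holds the 250 bases before the start, written in lower case because none of the motifs searched was found in it.
Aqp8 promoter: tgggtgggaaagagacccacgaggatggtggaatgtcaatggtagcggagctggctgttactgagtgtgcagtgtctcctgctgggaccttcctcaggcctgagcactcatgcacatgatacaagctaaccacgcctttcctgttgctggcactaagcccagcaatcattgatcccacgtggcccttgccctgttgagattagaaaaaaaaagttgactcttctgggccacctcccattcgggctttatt
On both strands, the promoter windows of the 4 genes were searched for the nuclear receptor half-site AGGTCA, direct repeat 1 and direct repeat 4 of it (which contain the half-site), the insulin response element TATTTTG and the TATA box TATAAA. The half-site occurred once, in Aqp11, at positions −230 to −225 from the start on the opposite strand. The windows searched also hold bases after the start, so they are longer than the stretch shown. The half-site is found in 16.3% of the 32851 such promoter windows, the insulin response element in 4.36% and the TATA box in 13.6%. The direct repeats are in 13 and 5 windows. No other match was found in these windows.

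Lists of genes that work beside Aqp8 were read against the share of all measured genes past 1.5-fold, 1.51% higher and 0.908% lower, at which lists of this size would hold few such genes or none. Of 8 measured genes of canalicular bile secretion 0 were past 1.5-fold, a count near that background, and their median log2 ratio was −0.089. The bile salt pump gene Abcb11 stood at 813.0 and 761.7, and Abcc2, which exports conjugates, at 597.5 and 544.1. Abcb4, the phospholipid flippase of bile, was 1.44-fold lower (1.39 to 1.49), from 526.3 to 365.5, with a log2 ratio of −0.52. The ammonia and urea list, chosen because AQP8 conducts ammonia in mitochondria, had a median of −0.048 over 11 genes, again with 0 past 1.5-fold. Cps1, which fixes ammonia in mitochondria, stood at 6095 and 6701, a ratio of 1.10, while Ass1 had a ratio of 0.849 and Slc25a13 of 0.875. Among 14 genes that make or use hydrogen peroxide, a solute of AQP8, AQP9 and AQP11, the median was −0.010 and 0 were past 1.5-fold. Their range was −0.15 (Prdx4) to 0.17 (Prdx3).

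For Aqp9 the related genes were those of glycerol use. Of 11 measured genes 3 had a log2 ratio above 0 and 8 below, and 0 were past 1.5-fold once the pseudocount of 1 was added. Their median was −0.12, and that of Aqp9 was −0.084. Gpam, which builds glycerolipid from glycerol phosphate, had the highest ratio, 1.502 (1.42 to 1.58), from 162.4 to 244.0. With the pseudocount, the log2 ratio of Gpam was 0.584, just short of 0.585, the value for 1.5-fold. Gpd2, the mitochondrial glycerol phosphate dehydrogenase, had the lowest, 0.774 (0.712 to 0.841), and Pck1 had 0.956. Glycerol kinase, listed as Gyk and named after its value was seen, acts directly after entry through AQP9, and its level was 190.4 in control and 171.9 in OTD, a ratio of 0.903. Insulin is known to lower Aqp9 and glucagon to act on Aqp8. Of 11 genes of these pathways 1 was at least 2-fold higher, beside 0.210% of all measured genes. It was Igfbp1, an insulin-repressed secreted protein gene, with 253.4 in control and 538.4 in OTD. The next largest ratio was that of Irs2, an insulin receptor substrate, at 1.28, and the median of the list was −0.057.

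Genes of protein folding and stress in the endoplasmic reticulum, where AQP11 resides, had a median log2 ratio of 0.089 over 13 genes. Herpud1, a gene of protein disposal in this compartment, was the one gene past 1.5-fold (lower), beside 0.908% of all measured genes. Its levels were 522.8 and 316.2. The chaperone gene Calr had a ratio of 1.20 and Hsp90b1 of 1.07.

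**Figure D4:**
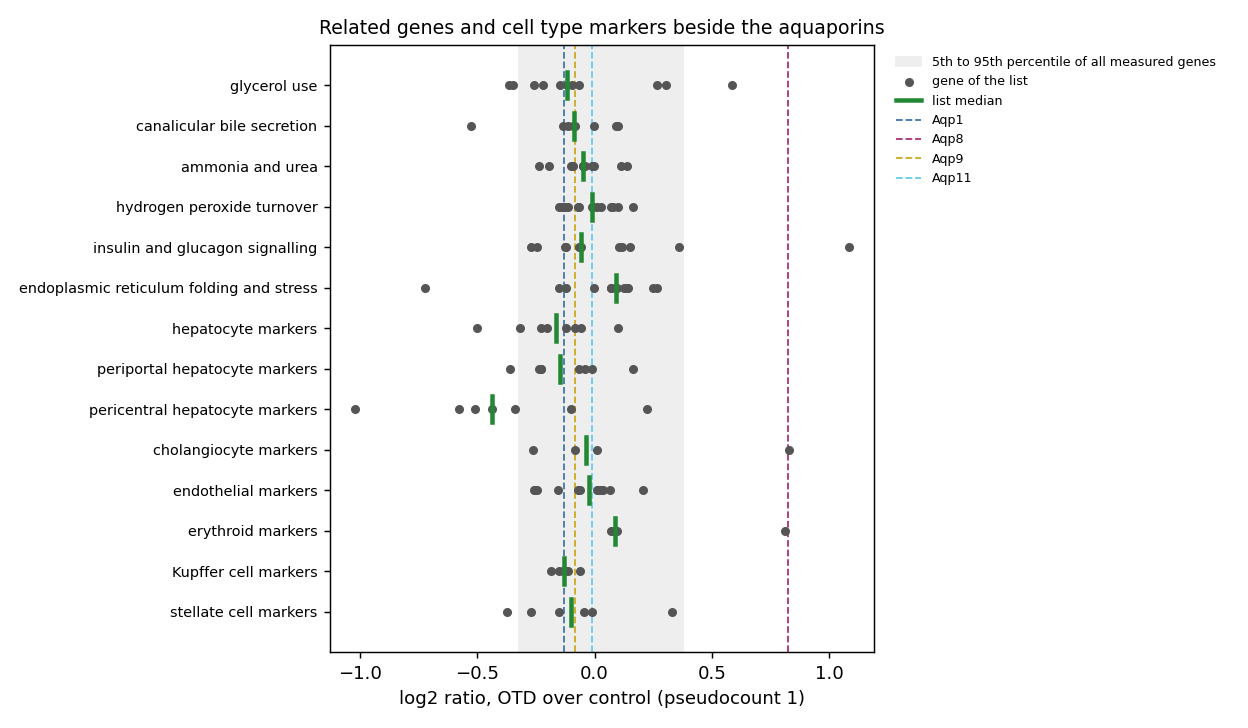
Log2 ratios of OTD over control for the measured genes of each list (grey points) with the list median (green bar), the 5th to 95th percentile of all measured genes (shaded) and the 4 aquaporins (dashed lines). Aqp8 at 0.82 lies beyond every list median, and the highest of these medians is 0.089. Single genes of the lists lie past Aqp8, namely Igfbp1 at 1.08 and Prom1 at 0.827.

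Cell type markers were read beside the members because bulk liver cannot tell fewer cells of a type from less RNA per cell. All 8 hepatocyte markers were high, with a lowest level of 193.3 in control and 154.7 in OTD (Cebpa), as the liver label implies. Their median log2 ratio was −0.16 and 7 of 8 were below 0. Hnf4a, a hepatocyte transcription factor gene, was 1.42-fold lower, and Alb stood at 81661 and 69694. Aqp8, at 0.82, thus lay above all 8 of these markers. Periportal markers had a median of −0.15 over 8 genes, with 1 above 0 and 7 below (ratios of 0.776 for Sds and 0.849 for Ass1). The 1 above 0 was Hal, with a ratio of 1.12, named after its value was seen. Pericentral markers had a median of −0.44 over 7 genes. Of these, 1 was at least 2-fold lower, Axin2 (20.1 to 9.42), beside 0.210% of all measured genes. Tbx3 had a log2 ratio of −0.58 and Cyp2e1 of −0.34. In all, 6 of the 7 lay below 0 and 1 above, Cyp1a2, with a log2 ratio of 0.22 (479.9 to 560.1), named after its value was seen. The part of hepatocyte zonation in the aquaporin levels was not tested.

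For Aqp1, 12 endothelial markers had a median log2 ratio of −0.026 and a summed level of 864.3 in control and 841.1 in OTD, a ratio of 0.973, beside 0.914 for Aqp1. Of these, 6 lay above 0 and 6 below, with ratios of 1.01 for Ptprb, 0.834 for Fcgr2b and 0.831 for Pecam1, and of 1.16 for Cdh5, which was named after its value was seen. Cholangiocyte markers summed to 68.7 and 73.5 over 8 genes, and 4 were measured, with Spp1 at 25.5 and 24.0, Sox9 at 17.5 and 14.4 and Prom1 1.86-fold higher. Of the duct markers under the minimum level, Cftr had 2 and 3 reads, Epcam 10 and 13, Krt7 10 and 26 and Krt19 21 and 30, all named after their values were seen. Erythroid markers summed to 311.9 and 389.8 over 7 genes. Hba-a2 accounted for most of this difference (80.6 to 142.2), and Hba-a1, a near copy with which reads can be shared, had a ratio of 1.07. Kupffer cell markers had a median of −0.13 over 6 genes (ratios of 0.876 for Cd163, 0.900 for Cd5l and 0.924 for Clec4f) and stellate cell markers of −0.10 over 6 genes (ratios of 0.764 for Lrat, 0.992 for Reln and 1.26 for Col3a1). None of the 6 neutrophil markers was measured, and their summed level was 7.96 in control and 14.2 in OTD. Lcn2, at 4.81 and 9.42, accounted for most of this difference. The other markers had few reads and did not all go the same way. S100a8 had 2 and 11 reads and S100a9 had 10 and 8, both genes picked with their values known. No change in neutrophils is read from this sum. The part of these cells in the levels of Aqp1 and Aqp9 was not tested.

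With 2 libraries, likeness between genes comes down to 1 log2 ratio each, so it describes these pools and says nothing of shared control. Among protein-coding genes with a mean level of at least 100, the nearest to Aqp8 by log2 ratio were Hba-a2 (0.81), an alpha-globin gene, and Cyp2a5 (0.85), a drug-metabolizing enzyme gene, and 3 of 1424 genes lay within 0.05 of it. Aqp1 had 303 genes within 0.05, with Ppm1a and Slc2a2 nearest, and Aqp9 had 348, with Apoc3 and Abcg5 nearest. Aqp11 had 343 of 1425, with Creg1 and Snrnp200 nearest. These counts restate the place of each ratio among all genes, with Aqp8 far from the median and the other members near it.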

How the data were processed

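Liver RNA of 2 pools was sequenced after ribosomal RNA depletion with a directional kit from 200 ng of total RNA, per the labels' protocols. The deposited table holds 1 normalized signal per gene and library, derived by the authors from read counts. Trimmomatic 0.38, Bowtie2, RSEM, edgeR and mm10 are named without role or order, per the submitters' processing notes. For the annotation and strand use, nothing is given in the sources used here. Whole multiples of 1 read (tolerance 1e-06) made up 100% of values per column, which gave 13569189 control and 14685193 OTD reads. Columns were matched to groups by Ctrl and OTD in their headings. With 1 library per group these reads leave no residual degree of freedom, so no count test was run and no p-value is given.

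Ratios are without a pseudocount, log2 ratios use a pseudocount of 1, and genes with a mean level of at least 10 were called measured. Symbols of 96.0% of genes matched GENCODE M21. The members, the 16 gene lists and the naming rule were chosen with earlier results of these data known. The rule took the members, the other family genes, the most abundant gene and the 2 largest absolute log2 ratios of each list, and the 2 nearest genes to each member. A gene that this rule takes is not reported here. Python 3.11.15 with scipy 1.17.1, pandas 2.3.3, numpy 2.4.6 and matplotlib 3.10.9 was used. The interval and fold rules were run on simulated reads with counting error alone. That simulation says nothing of variation among mice or pools.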

Additional observations from a re-analysis of the deposited data

How the results depend on the processing

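The log2 ratios of Aqp1, Aqp8 and Aqp11 stayed within their counting intervals under the 7 alternatives tried (pseudocounts of 0.5 and 10, 4 other scalings and subtraction of the median of 20 bins of mean level), with Aqp8 between 0.77 and 0.89. That of Aqp9 left its interval after scaling to the same total (−0.029), the same without Rn45s (−0.011) and after subtraction of the bin medians (0.00039). The count of aquaporins past the fold became 1 at 1.5-fold. Over all genes, 16 higher and 16 lower became 115 and 69 at 1.5-fold, 8 and 9 with a minimum mean of 50, 44 and 26 with no filter, and 10 lower with a pseudocount of 10, as the rule or the set of genes differed by construction. With exon unions as length, 2 of the 4 members kept their rank per kilobase in the OTD pool. No replicate could be left out, since each group has 1 library. No paired analysis was possible because each group has 1 library, so that no 2 pairs exist. Depth limits Aqp11 the most, with 241 and 269 reads.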
